A study of Homo sapiens with 8 samples.

Results

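The proteasome is the main protease of the cytosol and nucleus and degrades proteins that carry a chain of ubiquitin. Its barrel-shaped core is built from rings of alpha subunits (PSMA genes), which gate the entrance, around rings of beta subunits (PSMB genes), some of which cut peptide bonds. A regulatory particle sits on the core, where ATPases (PSMC genes) unfold substrates and non-ATPase subunits (PSMD genes) bind and remove ubiquitin. Other members of the family are alternative activators and an inhibitor (PSME genes and PSMF1) and chaperones that assemble the core (PSMG genes) or the base of the regulatory particle. Arsenite damages proteins by reacting with their thiols, so the proteasome is part of the machinery that handles its consequences, and the subunits are needed in fixed proportions to each other.

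Proteasome subunit genes were taken as the coding transcripts whose symbol has the form PSM, a letter from A to G, and a number. Of 19964 genes with a coding transcript, 48 have such a symbol, and 43 of these held a mean of at least 10 counts in both assays, among 10273 genes that did. They are 15 core subunits (PSMA and PSMB), 19 regulatory genes (PSMC and PSMD, including the base chaperones PSMD9 and PSMD10), and 9 activator, inhibitor and core chaperone genes. The cells were HEK293T, a transformed human embryonic kidney line, grown in DMEM and given either vehicle (control) or sodium arsenite at 40 µM for 30 min. Arsenite at this dose and time triggers phosphorylation of eIF2, which lowers translation in general, and the comparison addresses the immediate translational response before mRNA levels have had time to change widely. Each condition had 2 replicates by ribo-seq, which counts mRNA fragments protected by ribosomes, and the same 2 by mRNA-seq, which counts fragments of the mRNA itself. All statements concern 1 cell line, and all values are relative to the other mRNAs of the same library, so a general loss of translation is not visible in them.

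The ribo-seq libraries held 1016838 to 7197541 reads on coding sequences (CDS) and the mRNA-seq libraries 3986231 to 21672980 reads on transcripts, with replicate 2 the deeper one in every group. Of 7 genes known from the HEK293 lineage, 5 were above 10 CPM (reads scaled to a common library total) in every mRNA-seq library (range over the list 1.55 to 403). Of 4 markers of blood and antigen-presenting cells, 3 stayed under 1 CPM in every mRNA-seq library and none passed 1.81. For fibroblast markers 2 of 3, and for liver markers 2 of 2, stayed under 1 CPM. The summed level of the fibroblast list was 9.59 to 12.9 CPM, most of it from the remaining gene.

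Proteasome mRNAs formed a steady share of the reads in these cells. The 43 genes received 1.32% and 1.19% of all CDS footprints in the control replicates and 1.23% and 1.18% in the arsenite replicates. Of all mRNA-seq reads they held 0.803% and 0.771% in control and 0.777% and 0.753% after arsenite. In each assay the share was slightly lower after arsenite in both replicates, by 0.091 and 0.011 percentage points of footprints and by 0.025 and 0.018 points of mRNA reads. The groups overlapped for the footprints and for the mRNA reads. An exact two-sided permutation test over the libraries gave p = 0.667 in both assays, where 2 against 2 libraries cannot go below 0.333.

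Over all core and regulatory genes, the balance between core and regulatory particle differed far more between replicates than between conditions. Core subunits held 46.0% (Wilson 95% interval 45.4 to 46.7) of the core and regulatory footprints in control replicate 1 and 53.0% (52.6 to 53.3) in control replicate 2. After arsenite the values were 45.0% (44.1 to 45.9) and 53.9% (53.3 to 54.4). In the mRNA reads the core share was 43.9% and 55.1% in control and 43.1% and 52.8% after arsenite. These intervals cover counting error only. The footprint share thus moved by -1.07 points in replicate 1 and by 0.90 points in replicate 2, whereas the mRNA share moved by -0.80 and -2.29 points. The exact permutation test gave p = 1 for the footprints and p = 0.667 for the mRNA. Leaving out PSMA4, which received 921 and 4359 footprints in control and 1060 and 1883 after arsenite, the mean movement of the footprint share was -1.85 points instead of -0.08. The replicates still moved in opposite directions, down in replicate 1 and up in replicate 2. The size of the footprint movement thus depended on PSMA4, and the opening comparison covers the shares with PSMA4 included.

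**Figure D1:**
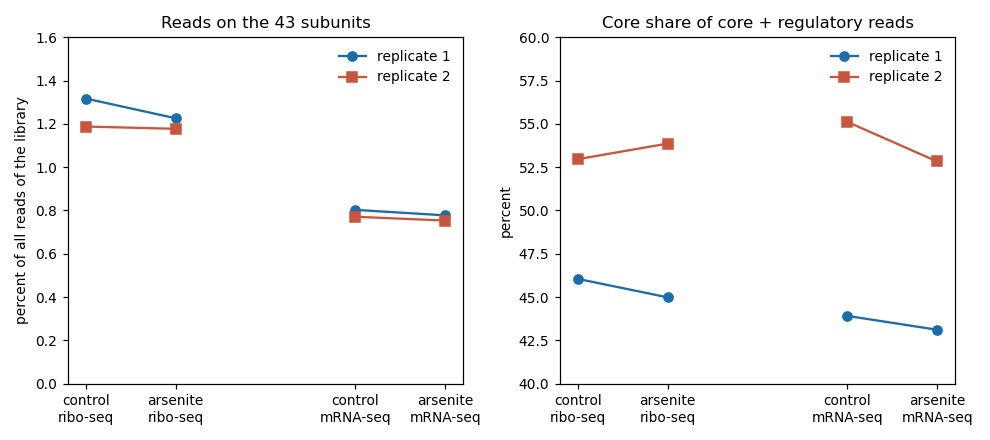
Left, reads on the 43 proteasome subunit genes as a percent of all reads of the library (vertical axis from 0), and right, core reads as a percent of core plus regulatory reads (vertical axis from 40%), for each of the 8 libraries; lines join control and arsenite of the same replicate and each point is 1 library. The subunits hold 1.18% to 1.32% of footprints and 0.753% to 0.803% of mRNA reads, and the core share separates the replicates (43.1% to 46.0% against 52.8% to 55.1%) rather than the conditions.

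Within the core, the alpha subunits held 51.0% and 44.3% of the footprints on alpha and constitutive beta subunits in control. After arsenite they held 56.6% and 42.3%, higher in replicate 1 and lower in replicate 2. Their share of the mRNA reads was 44.8% and 52.4% in control and 47.3% and 52.6% after arsenite. The mRNA share was thus higher by 2.48 and 0.21 points within the replicates. The exact permutation test, which does not pair the replicates and cannot go below 0.333 here, gave p = 1 for footprints and p = 0.667 for mRNA.

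Before any treatment, most subunit mRNAs had more footprints per mRNA read than the typical mRNA. The measure here is the log2 ratio of ribo-seq to mRNA-seq reads on the same CDS, set relative to the median gene of the library pair, in which the length of the CDS cancels. In control, 37 of 43 subunits lay above the median gene and 22 lay above the 75th percentile, with a median of 0.62 (1.53-fold of the median gene). The 14 constitutive alpha and beta subunits, the 6 ATPases and the 11 non-ATPase subunits were all above the median gene in their mean over the replicates, although PSMA6 and PSMA7 were below it in replicate 2. The medians were 0.75 for alpha subunits, 0.62 for constitutive beta subunits, 0.61 for ATPases and 0.68 for non-ATPase subunits. These medians differed from each other by less than the replicates of any alpha subunit did.

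The highest ratio in control was that of PSMD4, a ubiquitin receptor of the regulatory particle, at 1.65 ± 1.21 (SD, n = 2). Its replicates were far apart, at 2.50 and 0.80, and replicate 1 rested on 40 mRNA reads on the CDS. Reads shared between genes had been discarded before deposit, so the level of PSMD4, for which processed pseudogenes are known, is uncertain. PSMD12, a scaffold subunit of the lid, followed with 1.45 ± 0.873 (SD, n = 2). The structural beta subunit PSMB3 stood at 1.31 ± 0.0191 (SD, n = 2) and was the steadiest of these, at 2.48-fold of the median gene. By their replicates, PSMD4, PSMD12 and PSMB3 could not be placed in order.

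The core chaperones were the exception among the groups. PSMG1 and PSMG2 work as a pair, as do PSMG3 and PSMG4, and together they help to build the alpha ring. All 4 lay below the median gene, with a median ratio of -0.66 (0.634-fold). PSMG4 stood at -0.92 ± 0.273, PSMG3 at -0.90 ± 0.595, PSMG2 at -0.42 ± 0.205 and PSMG1 at -0.32 ± 0.371 (SD, n = 2 each). Each of the 4 was below the median gene in both control replicates. In contrast, the activators and the inhibitor had a median ratio of 0.69, with 4 of 5 above the median gene.

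The lowest ratio of the family was that of PSMB10, an interferon-inducible catalytic beta subunit that replaces PSMB7 in the immunoproteasome. It received 4 and 68 footprints in the control replicates against 141 and 456 mRNA reads on its CDS. The ratio was -4.07 and -1.89, or -2.98 ± 1.54 (SD, n = 2), which is 0.127-fold of the median gene and the 0.594th percentile of all genes past the filter. After arsenite its footprints were 2 and 30 and its ratio -4.07 and -1.72. The replicates thus differed in how low the gene was, but not in its place below all other subunits.

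**Figure D2:**
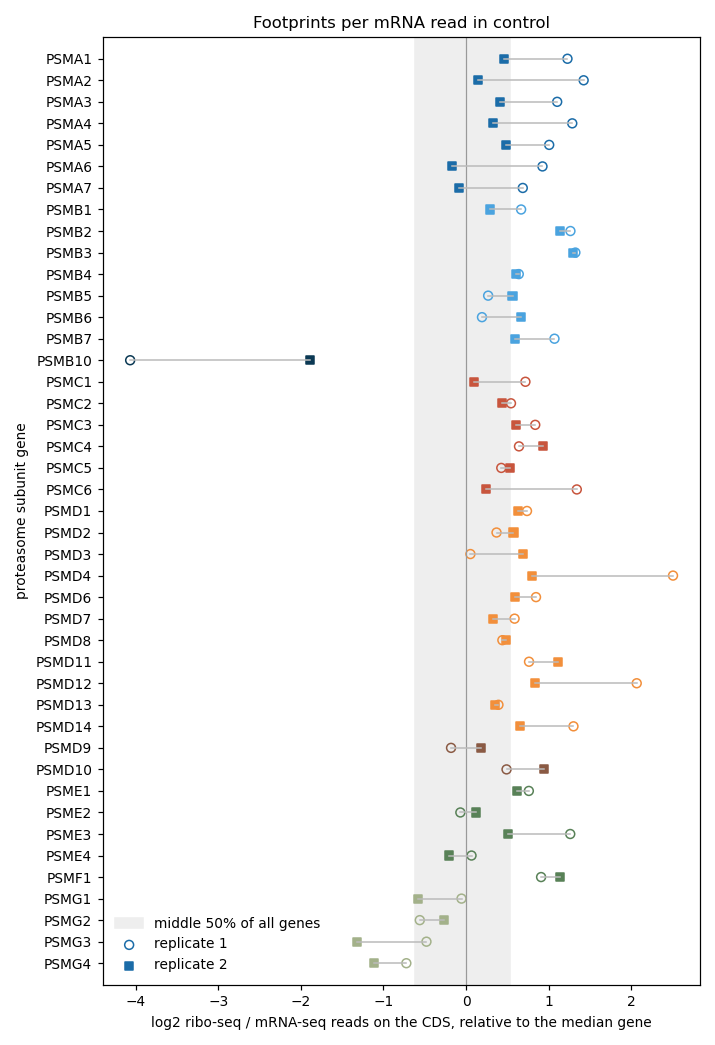
Log2 ratio of ribo-seq to mRNA-seq reads on the CDS in control, relative to the median gene (horizontal axis, 0 is the median gene), for each of the 43 subunit genes; open circles are replicate 1, filled squares replicate 2, the line joins them, colours mark the subunit groups, and the grey band spans the middle of all genes from the 25th to the 75th percentile. Most core and regulatory subunits lie to the right of 0, the 4 core chaperones to the left, and PSMB10 lies at -4.07 and -1.89.

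The other subunits particular to the immunoproteasome were at or near 0. PSMB8 had 0 footprints in all 4 ribo-seq libraries, where 3 reads would correspond to 0.417 to 2.95 CPM, and 1, 1, 0 and 4 mRNA reads (control replicates 1 and 2, then arsenite replicates 1 and 2). PSMB9 had 0, 1, 0 and 0 footprints and 2, 7, 0 and 5 mRNA reads in the same order. PSMB11 of the thymus had no read in any library. PSMA8, an alpha subunit of the testis, had 2 mRNA reads in control replicate 2 and none elsewhere. The fifth gene below the count minimum was the base chaperone PSMD5, with 1, 6, 0 and 14 mRNA reads and 1 footprint in control replicate 2. A loss of reads shared with other genes before deposit was not tested for PSMD5. By contrast PSMB5, the constitutive catalytic subunit that PSMB8 replaces, had 187 and 331 normalized footprint CPM in control and 136 and 356 after arsenite.

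Antioxidant response elements are the binding sequences of the NRF1 and NRF2 family of transcription factors, of which NRF1 (gene NFE2L1) is known to drive proteasome genes when proteasome capacity falls short. The core letters TGACNNNGC, on either strand, were searched in promoters spanning 250 bases before to 50 bases after the start site (RefSeq, GRCh38.p14). Of the 43 subunit genes, 37 had a promoter in the reference and 6 did not. The letters were present in 13 of their 45 promoters (28.9%), against 13.3% of all 35116 promoters and 14.2% of promoters of genes tested for RNA level. The CCAAT letters, searched in the same way and with overlaps between the motifs kept, were present in 18 of the 45 (40.0%) against 34.6% of all. The windows shown are those of the core and regulatory genes that have 1 promoter in the reference and a match before the start site, since the RNA levels of these genes are compared next. Each runs 5′ to 3′ along the gene, with the match in capitals.
PSMB3 (chr17:38752629-38752653, plus strand): ctccgtttTGACTTTGCaaccaaac
PSMD3 (chr17:39980762-39980786, plus strand): ccctttgtTGACTCGGCcatcggcc
PSMD9 (chr12:121888680-121888704, plus strand): gcttccggTGACCCAGCtccgccct
PSMD9 (chr12:121888633-121888657, plus strand, letters on the opposite strand): ctactcctGCCGGGTCAccacaggc
PSMD12 (chr17:67366726-67366750, minus strand): acaaaaccTGACGCTGCaggctgga
The matches end 95, 28, 93, 140 and 156 bases before the start site in the order shown. A match describes the letters only, and no binding was measured. At 30 min of arsenite the RNA changes of these genes were small, at -0.01 for PSMB3, 0.05 for PSMD3, -0.10 for PSMD9 and 0.08 for PSMD12 on the log2 scale, and none passed the test.

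RNA levels of the subunits changed little. With edgeR's quasi-likelihood test, adjusted over 12572 genes and with replicate as a block, 2 of 43 subunits passed an adjusted p of 0.05 and both were lower after arsenite, while 5.45% of all tested genes passed in either direction and 1.87% passed as lower. At an unadjusted p under 0.05 there were 10 of the 43, against 18.3% of all genes. The changes of the 43 ranged from -0.21 to 0.13 on the log2 scale with an SD over genes of 0.092, against 0.188 over all tested genes, and the fitted standard errors of the subunits were 0.05 to 0.09. The wider spread over all genes includes genes with few reads.

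PSMB4, a structural beta subunit, fell. Its level was 537 and 342 normalized CPM in control and 438 and 310 after arsenite, replicate 1 given before replicate 2. The groups overlapped in absolute level because the replicates differed, but within each replicate the arsenite library was the lower. The change was -0.21 (SE 0.0504, adjusted p = 0.0031, edgeR), from -0.30 in replicate 1 and -0.14 in replicate 2. With DESeq2 the change was the same size and no longer passed (adjusted p = 0.101).

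PSMG3, one of the core chaperones, was the other. Its level was 81.3 and 98.6 normalized CPM in control and 76.9 and 83.7 after arsenite, again lower within each replicate while the groups overlapped. The change was -0.20 (SE 0.0628, adjusted p = 0.036, edgeR), with -0.08 in replicate 1 and -0.24 in replicate 2. With mRNA-seq reads from only the CDS the change was -0.09 (adjusted p = 0.729, edgeR). Neither gene passed without the replicate block.

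By group, 14 of the 15 core subunits had a negative RNA change (median -0.07) and PSMA4 was the one exception, against 52.3% of all tested genes with a negative change (median -0.01). Only PSMB4 of these passed the test. The count came mainly from replicate 2, where 14 of 15 were negative (median -0.09), while replicate 1 gave 9 of 15 (median -0.02). It was 13 to 14 of 15 under every normalization, filter, transcript and read region tried. The 4 core chaperones were likewise all negative, with a median of -0.14. Of the 19 regulatory genes 8 were negative and 11 positive, with a median of 0.01, and 8 of the 11 non-ATPase subunits were positive with a median of 0.08. At an unadjusted p under 0.05 there were 6 of the 15 core subunits, 2 of the 4 core chaperones and 1 of the 19 regulatory genes by edgeR, against 18.3% of all tested genes. The groups were not tested against each other.

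The largest positive RNA changes belonged to regulatory subunits and none passed the test. PSMD11, a lid subunit, stood at 217 and 177 normalized CPM in control and 246 and 189 after arsenite, a change of 0.13 (SE 0.0525, adjusted p = 0.153, edgeR) that was positive in both replicates. PSMC3, an ATPase, stood at 140 and 135 in control and 158 and 143 after arsenite, a change of 0.11 (adjusted p = 0.291, edgeR), with the arsenite libraries above both controls. PSMD4 gave 11.6 and 37.6 in control and 18.6 and 38.5 after arsenite, with a change of 0.10 (adjusted p = 0.601, edgeR) that was 0.68 in the shallow replicate 1 and 0.03 in replicate 2. The most negative change after PSMB4 and PSMG3 was that of PSME1, a subunit of the interferon-inducible activator, at -0.17 (adjusted p = 0.183, edgeR), from 43.1 and 49.4 in control to 45.8 and 41.8 after arsenite, opposite in the replicates. PSMG4 was at -0.17 (adjusted p = 0.267, edgeR) with 0.29 in replicate 1 and -0.29 in replicate 2.

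**Figure D3:**
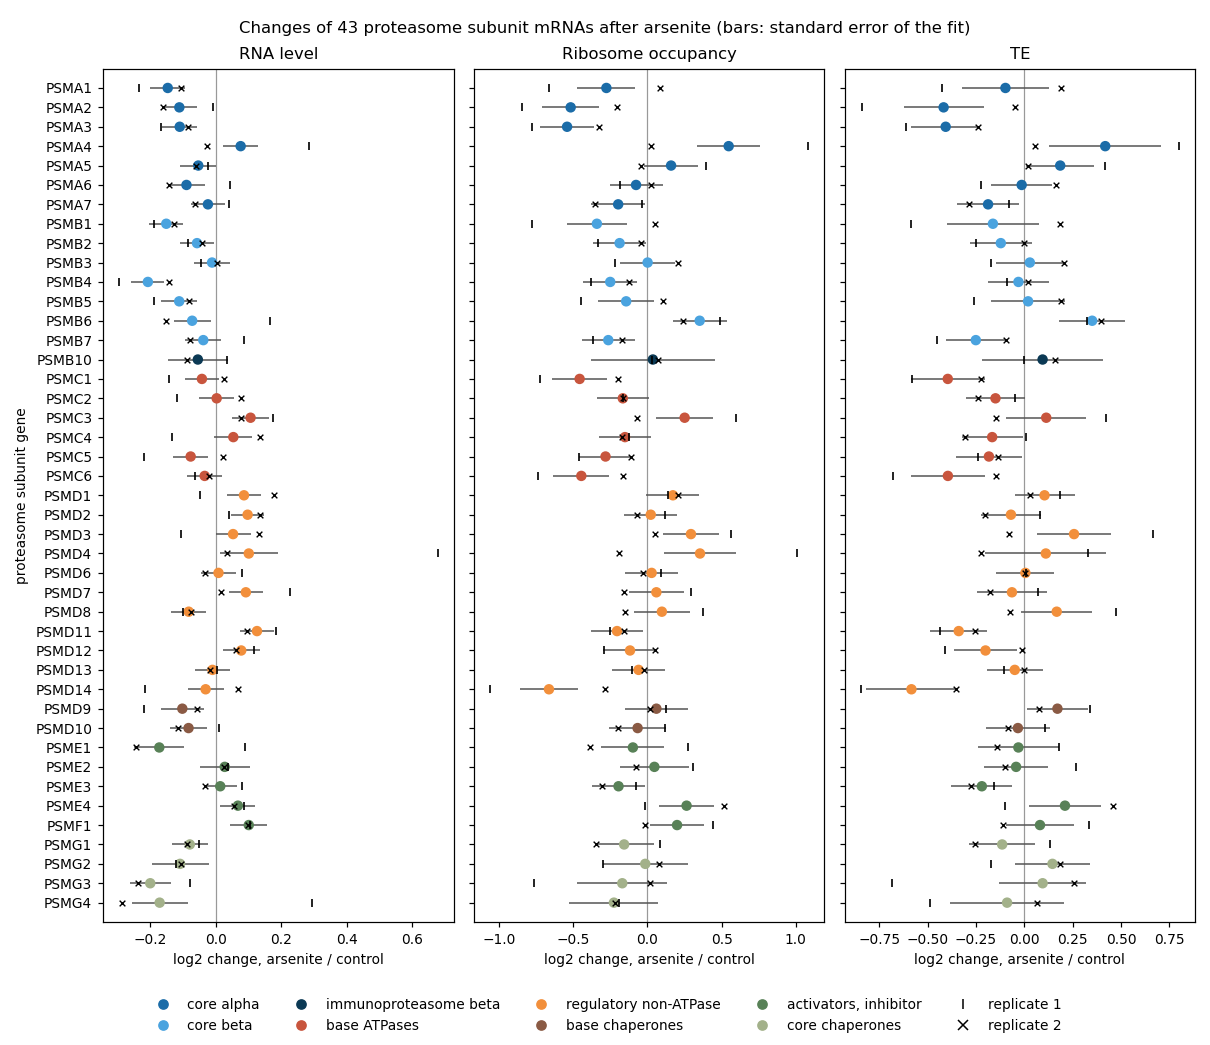
Log2 change after arsenite (horizontal axes, each panel on its own scale) in RNA level, ribosome occupancy and translation efficiency (TE) for the 43 subunit genes; coloured points are the fitted change with its standard error, the short bars are replicate 1 and the crosses replicate 2. RNA changes lie between -0.21 and 0.13 and those of occupancy between -0.66 and 0.55. In every panel the replicates of a gene are often on opposite sides of 0. They share a sign in 23 of the 43 genes for RNA level, 22 for occupancy and 20 for TE.

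Ribosome occupancy is the ribo-seq read count on the CDS, compared in the same way over 10291 genes. None of the 43 subunits passed an adjusted p of 0.05 by edgeR's quasi-likelihood test, where 2.92% of all tested genes did (1.53% higher and 1.4% lower). At an unadjusted p under 0.05 there were 6 of 43, against 17.7% of all genes. By DESeq2 there were 0 subunits after adjustment and 4 before, against 53 and 613 of the 10291 genes. DESeq2 gave no adjusted p for 6 of the 43. The standard errors of the subunits were 0.18 to 0.42, so small changes could not be resolved. Even a change of -0.66 with a standard error of 0.197, that of PSMD14, did not pass here. The median change was -0.10 for the family, -0.19 for the core and -0.06 for the regulatory genes, against -0.00 over all tested genes. The replicates disagreed on the core median, at -0.34 and 0.02, and on the regulatory median, at 0.09 and -0.15 in replicates 1 and 2. The family median was -0.10 and -0.07.

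PSMD14, the deubiquitinase of the lid that cuts ubiquitin chains off substrates, had the lowest occupancy change. Its normalized footprint CPM were 539 and 192 in control and 258 and 157 after arsenite, so that both replicates went down, by different amounts and from different starting levels. The change was -0.66 (SE 0.197, adjusted p = 0.0687, edgeR), from -1.06 in replicate 1 and -0.28 in replicate 2. It passed the threshold under upper-quartile normalization (adjusted p = 0.0297), with a minimum mean of 1 count (adjusted p = 0.0291) and with a minimum mean of 50 counts (adjusted p = 0.0101, edgeR in each case). It did not pass with DESeq2 (adjusted p = 0.246) or without the replicate block. Nor did it pass with the transcript of most mRNA-seq reads (adjusted p = 0.0805, edgeR) or footprints over the whole transcript (adjusted p = 0.0828, edgeR). Its mRNA was 218 and 135 normalized CPM in control and 188 and 142 after arsenite, a change of -0.03.

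The alpha subunits PSMA3 and PSMA2 came next. PSMA3 had 444 and 348 normalized footprint CPM in control and 259 and 277 after arsenite, with the groups apart, and a change of -0.54 (SE 0.185, adjusted p = 0.116, edgeR). With a minimum mean of 50 counts it passed, at an adjusted p of 0.0488 by edgeR. It passed under no other alternative, with an adjusted p of 0.349 by DESeq2 and 0.0868 by edgeR under upper-quartile normalization. PSMA2 had 583 and 338 in control and 324 and 293 after arsenite, likewise apart, and a change of -0.52 (adjusted p = 0.149, edgeR).

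PSMA4, also an alpha subunit, had the highest change at 0.55 (SE 0.213, adjusted p = 0.168, edgeR). Its normalized footprint CPM were 532 and 567 in control and 1129 and 577 after arsenite. The arsenite library of replicate 1 stood apart and the other 3 libraries lay within 532 to 577, so the change was 1.09 in replicate 1 and 0.03 in replicate 2. PSMB6, the subunit with caspase-like activity, had 149 and 350 in control and 209 and 414 after arsenite, higher within each replicate, and a change of 0.35 (adjusted p = 0.319, edgeR). PSMD4 had 70.5 and 64.9 in control and 142 and 56.7 after arsenite, a change of 0.35 (adjusted p = 0.472, edgeR) with the replicates on opposite sides of 0.

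**Figure D4:**
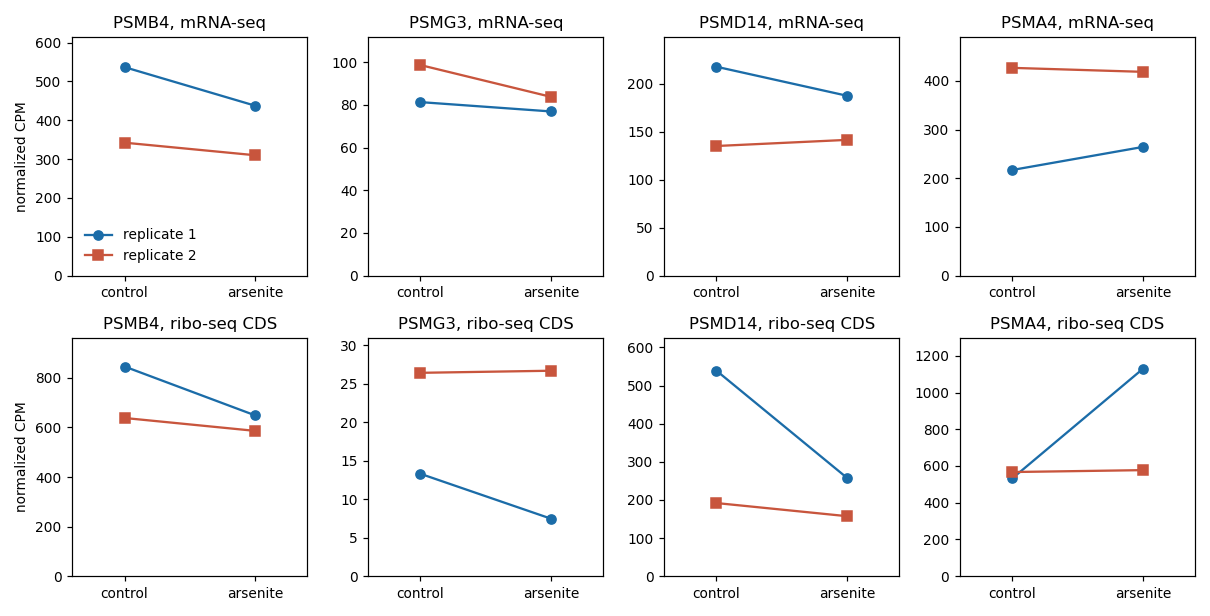
Normalized CPM (vertical axes from 0) in mRNA-seq (top) and in ribo-seq on the CDS (bottom) for PSMB4, PSMG3, PSMD14 and PSMA4; circles are replicate 1 and squares replicate 2, each point is 1 library, and lines join control and arsenite of a replicate. PSMB4 mRNA goes from 537 and 342 to 438 and 310, PSMD14 footprints go from 539 and 192 to 258 and 157, and PSMA4 footprints rise to 1129 in 1 arsenite library.

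The remaining genes fixed for description had smaller changes. PSMF1, the inhibitor also known as PI31, changed by 0.10 in RNA level and 0.20 in occupancy (adjusted p = 0.335 and 0.623, edgeR). PSME4, the large activator also known as PA200, changed by 0.07 and 0.26 (adjusted p = 0.545 and 0.495, edgeR), the latter with -0.02 in replicate 1 and 0.52 in replicate 2. PSMB5 changed by -0.11 and -0.14 (adjusted p = 0.246 and 0.751, edgeR), and PSMB10 by -0.05 and 0.04 (adjusted p = 0.813 and 0.975, edgeR).

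Translation efficiency is the occupancy change beyond the RNA change, tested as the assay by treatment interaction over 10273 genes. None of the 43 subunits passed an adjusted p of 0.05 by edgeR's quasi-likelihood test, against 2.11% of all tested genes (1.03% higher and 1.08% lower). At an unadjusted p under 0.05 there were 3 (PSMD14, PSMA3 and PSMD11), where 21.2% of all genes had such a p. By DESeq2 there were 0 subunits on either count, against 82 of the 10273 genes after adjustment and 800 before. DESeq2 gave no adjusted p for 5 of the 43. The changes ran from -0.58 to 0.42 with an SD over genes of 0.214, against 0.452 over all tested genes. The standard errors of the subunits were 0.15 to 0.31, with a median of 0.174 against 0.211 over all tested genes. As for RNA level, the wider spread over all genes includes genes with few reads. The median was -0.04 for the family, -0.03 for the core and -0.06 for the regulatory genes, against -0.01 over all genes. As for occupancy, the core medians of the replicates lay on opposite sides of 0, at -0.23 and 0.05. So did the regulatory medians, at 0.01 and -0.14, while the family medians were -0.09 and -0.07.

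The lowest TE change was again that of PSMD14, at -0.58 (SE 0.234, adjusted p = 0.194, edgeR), with -0.85 in replicate 1 and -0.35 in replicate 2. PSMA2 followed at -0.42 (adjusted p = 0.282, edgeR), with -0.84 and -0.05. PSMA3 stood at -0.41 (adjusted p = 0.225, edgeR), with -0.61 and -0.24. PSMD11, whose RNA change was the most positive of the family, stood at -0.34 (adjusted p = 0.223, edgeR), with -0.43 and -0.26 in the replicates.

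The highest TE changes were 0.42 for PSMA4 (adjusted p = 0.437, edgeR), 0.35 for PSMB6 (adjusted p = 0.277, edgeR) and 0.26 for PSMD3, a lid subunit (adjusted p = 0.465, edgeR). PSMB6 was alike in both replicates, at 0.32 and 0.39, whereas PSMA4 gave 0.80 and 0.05 and PSMD3 gave 0.67 and -0.08. Among the 6 ATPases, 5 had a negative TE change (median -0.17), against 51.3% of all tested genes. The medians of the replicates were -0.14 and -0.18. Of the 6, 4 had the same sign in both replicates, and none passed the test. PSMB4, lower in RNA level, had a TE change of -0.03 (SE 0.160), and PSMG3 had 0.09 (SE 0.224).

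The ranking by Z-scores, which sets each gene against genes of similar read number within 1 replicate and holds no replicate error, placed no subunit beyond 4 in any measure or replicate. Beyond 2 in either direction there were 2 and 2 subunits for RNA level, 2 and 0 for occupancy and 1 and 0 for TE in replicates 1 and 2, where 3.97% to 4.60% of all genes were. The extremes were all in replicate 1, with 2.48 for the occupancy of PSMA4 and -2.34 for the RNA level of PSMB4, along with 2.34 for that of PSMD4.

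Short reading frames in the 5′ leader are known to let some mRNAs escape the block set by eIF2 phosphorylation, so leader footprints were counted for the subunits. Leaders held 14 of 24921 footprints (0.056%, Wilson 95% interval 0.033 to 0.094) and 204 of 85726 (0.238%, 0.208 to 0.273) on subunit transcripts in the control replicates. After arsenite they held 14 of 12480 (0.112%, 0.067 to 0.188) and 212 of 35299 (0.601%, 0.525 to 0.687). The leader share of all transcripts was higher in every library, at 0.384% and 0.765% in control and 0.477% and 1.46% after arsenite. Both shares were higher after arsenite within each replicate, although for the subunits in replicate 1 the intervals overlapped. These intervals cover counting error only and do not test the treatment. In control, 35 of the 43 subunits had no leader footprint in replicate 1 and 16 had none in the deeper replicate 2. After arsenite these counts were 34 and 17.

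PSMA5, an alpha subunit, had the most leader footprints, at 42 in control and 42 in arsenite of replicate 2 but 1 and 0 in replicate 1. PSMD14 had 5 and 24 in control and 2 and 15 after arsenite, and PSMD3 had 1 and 20 and then 2 and 21. These were the subunits with enough leader reads to be tested among 625 genes. A model with replicate blocks for each region was added after the planned one failed on simulated data. It scales leader and CDS reads separately, so its leader-to-CDS shifts are relative to the typical tested gene. By edgeR's quasi-likelihood test they were 0.31 for PSMA5, 0.08 for PSMD14 and 0.52 for PSMD3 (adjusted p = 0.974, 0.999 and 0.935). In this model 7 of the 625 genes passed. Without separate scaling, the log2 changes of leader over CDS reads within replicates were 0.81 to 0.86 for PSMD14 and 1.06 to 1.25 for PSMD3. For PSMA5 they were -1.10 to 1.28. All rest on few leader reads in replicate 1. Footprints in 3′ UTRs were rarer still, at 5 and 49 in control and 4 and 81 after arsenite, which is 0.020%, 0.057%, 0.032% and 0.229% of subunit footprints against 0.101%, 0.204%, 0.200% and 0.754% for all transcripts.

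Other genes of the proteasome and of the ubiquitin pathway, taken from lists drawn up by role with earlier results of these data known, served as the surroundings of the family. Of 10 further proteasome genes (receptors, assembly factors and bound enzymes), none passed in RNA level, occupancy or TE by edgeR at an adjusted p of 0.05, against 5.45%, 2.92% and 2.11% of all tested genes. At an unadjusted p under 0.05 there were 1, 2 and 2, against 18.3%, 17.7% and 21.2% of all. POMP, the maturation factor of the core, changed by -0.09 in RNA level and -0.23 in occupancy (adjusted p = 0.400 and 0.561, edgeR). ADRM1, a ubiquitin receptor of the regulatory particle, changed by 0.05 and -0.01 (adjusted p = 0.708 and 0.989, edgeR).

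Of 23 ubiquitin pathway genes tested in RNA level, 3 were higher and 0 lower by edgeR, against 3.58% and 1.87% of all tested genes. UBA1, the main ubiquitin-activating enzyme, rose by 0.34 (adjusted p = 2.69e-08), and BAG6, a chaperone for exposed hydrophobic segments, by 0.38 (adjusted p = 4.14e-09, edgeR). VCP, an ATPase that extracts ubiquitinated proteins, rose by 0.19 (adjusted p = 0.0087, edgeR). All 3 were higher in both replicates.

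In occupancy 0 of 22 of these genes were higher and 1 was lower by edgeR, against 1.53% and 1.4% of all tested genes, and 5 had an unadjusted p under 0.05, against 17.7% of all. The gene that was lower is RAD23B, a shuttle factor that carries ubiquitinated proteins to the proteasome. It received 830 and 2922 CDS reads in control and 315 and 594 after arsenite, an occupancy change of -0.80 (SE 0.188, adjusted p = 0.0239, edgeR), with -0.51 and -1.06 in the replicates. Its RNA level changed by 0.00 and its TE by -0.79 (adjusted p = 0.0634, edgeR). None of the 22 passed in TE by edgeR, against 2.11% of all tested genes, and 4 had an unadjusted p under 0.05, against 21.2% of all. UBB, a polyubiquitin gene, had an occupancy change of 0.34 (adjusted p = 0.380, edgeR), with 0.70 and 0.01 in the replicates.

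NFE2L1, the gene of NRF1, changed by 0.13 in RNA level and -0.08 in occupancy (adjusted p = 0.187 and 0.885, edgeR). ZFAND2A, known as an arsenite-inducible protein that associates with the proteasome, had 4 and 8 CDS footprints in control and 5 and 10 after arsenite, below the count minimum of the test. Relative to library size these counts were 1.17 and 1.54 higher on the log2 scale in replicates 1 and 2, a difference that rests on few reads and was not tested. Its RNA change was 0.07 (adjusted p = 0.828, edgeR).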

How the data were processed

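Samples were grouped by the treatment, RNA type and replicate number in the labels. The deposited files hold raw read counts per RefSeq transcript, split by the authors into leader, CDS and 3′ UTR. Per the study's methods, cutadapt removed a different adapter in each of the 2 replicates, described as biological, and reads were aligned to the sense strand with Bowtie 1.0.0. Reads matching several genes were discarded, which lowers genes with near-identical copies. The subunits and gene lists were chosen with earlier results of these data known, and part of the ubiquitin pathway list is not reported here.

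For each gene the transcript with most CDS footprints over both control libraries was kept, and a mean of 10 counts or more was required for a test. Changes were tested with edgeR 4.0.16 (quasi-likelihood, TMM, R 4.3.3) on CDS counts for ribosome occupancy, transcript counts for RNA level and the assay by treatment interaction for TE, with Benjamini-Hochberg adjustment over all genes tested and a threshold of 0.05. Replicate was a block: same-numbered libraries share an adapter and deviated together from their group means (correlation 0.698 over 10169 genes for ribo-seq and 0.718 over 12496 for mRNA-seq). Normalized CPM use TMM library sizes, and within-replicate changes a prior count of 0.5. Z-scores used bins of 300 genes and at least 2 reads. CDS lengths were not used here, so the ratio of ribo-seq to mRNA-seq reads on a CDS replaced the planned density per codon. The planned leader model could not recover simulated shifts and is given no weight. Alternatives were DESeq2 1.42.0, upper-quartile normalization, and other filters, transcripts and read regions. Full values are given for subunits that passed a test, the 3 highest and 3 lowest of each measure, and 7 subunits fixed by role; others were named for their role or after their values were seen.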

Additional observations from a re-analysis of the deposited data

How the results depend on the processing

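The standard errors of occupancy changes were 0.18 to 0.42 for the subunits, which limits the changes that can be resolved. The RNA changes of PSMB4 and PSMG3, the subunits that passed, stayed negative under every alternative run, and genes outside the family were not followed across alternatives. Without the replicate block, no gene passed in any measure (0 higher and 0 lower for RNA level, occupancy and TE, and 0 subunits), with 28, 149 and 148 genes at an unadjusted p under 0.05 by edgeR. The cause of the other differences was not tested.

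For RNA level, where 450 genes were higher and 235 lower, DESeq2 called 80 higher and 11 lower and 0 subunits, with no adjusted p for 14 of the 43, and reads from only the CDS of mRNA-seq gave 190 higher and 36 lower and 1 subunit. For occupancy, where 157 were higher and 144 lower, DESeq2 called 26 and 27, upper-quartile normalization 260 and 232, and a minimum mean of 50 counts 296 and 281, while a minimum mean of 1 count gave 242 lower. The number of subunits called was 1 with upper-quartile normalization, 1 with the minimum mean of 1 count and 2 with that of 50 counts. For TE, where 106 were higher and 111 lower, DESeq2 called 36 and 46, a minimum mean of 50 counts 27 and 26, and reads from only the CDS of mRNA-seq 56 and 59, while upper-quartile normalization gave 72 lower. The leader-to-CDS test called 0 of 625 genes as planned (2 at an unadjusted p under 0.05, edgeR) and 7 in the model added after seeing the data. Without PSMA4, also added then, the core share of footprints moved by a mean of -1.85 points, with the replicates in opposite directions. With bins of 150 genes, 1 subunit was beyond a Z-score of 2 for RNA level in replicate 2 and 0 for TE in replicate 1.

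Leaving out a replicate gave a median RNA change of the core between -0.085 and -0.023, and a median control ratio of the regulatory genes between 0.59 and 0.64. The core ratio lay between 0.45 and 1.01, and the PSMG3 RNA change between -0.24 and -0.08. Of the values of named genes under alternatives, 510 stayed within the spread or on the same side of the threshold, 13 moved, 4 newly passed and 4 no longer passed.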

Other observations

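Antisense transcripts of 2 subunit genes had reads of their own. PSMG3-AS1 had 25, 97, 28 and 94 mRNA-seq reads on its NR_027329 transcript (control replicates 1 and 2, then arsenite replicates 1 and 2) and 3, 5, 0 and 11 ribo-seq reads. PSMD6-AS2 had 8, 29, 13 and 29 mRNA-seq reads and 0 ribo-seq reads in every library. Reads were aligned to the sense strand of each transcript only. They were not tested.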
